A study of Caenorhabditis elegans with 2 samples.

Results

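The genes described here are the 70 nuclear protein-coding genes of Caenorhabditis elegans named mrpl- or mrps-, out of 19973 nuclear protein-coding genes. They encode proteins of the mitochondrial ribosome, 41 of the large subunit (mrpl-) and 29 of the small subunit (mrps-). The genes were taken by name from the Ensembl gene models, and the group was chosen with earlier results of these data known. The data are ChIP-seq of ZTF-4, a protein named for its zinc finger domain, in whole animals at L3, the third larval stage. All animals were of strain OP322, which carries the integrated transgene wgIs322 for eGFP-tagged ZTF-4 and the unc-119 allele ed3 on chromosome III, and both sexes were pooled. There was 1 group with 2 biological replicates and no comparison group. The strain is a single transgenic line, and the labels do not name the promoter that drives the transgene. Expression of the genes was not measured, so the values below describe where chromatin was recovered and not how much of a gene was made.

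Mitochondrial ribosomes translate the few membrane proteins encoded in the mitochondrial genome, all of them parts of the oxidative phosphorylation machinery. Their RNAs come from mitochondrial DNA, while their proteins are encoded in the nucleus, made in the cytosol and imported, so assembly needs gene products of both genomes. In C. elegans, lowering mrps-5 is known to activate the mitochondrial unfolded protein response and to lengthen life.

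The values are regions listed by the authors, each with a summit (the base of strongest enrichment), a signal (the authors' measure of enrichment) and a q-value. A candidate is a region whose summit lies within 500 bp of the annotated 5' end of a gene, and where a gene has several, the one with the highest signal is used. The list of replicate 1 held 29249 regions and that of replicate 2 held 30000. Another list, from the reads of both replicates and here named the pooled list, also held 30000. The 704 strongest pooled regions are those that passed IDR, the irreproducible discovery rate, with signals of 35.9 and above. The pooled list is labelled as peaks and background, the input for IDR, so a region in it is not by itself called binding. Many of its other regions are weak, and they go down to a signal of 5.79. A q-value of at most 0.05 was reached by 5082 of the 30000 pooled regions. Read depth is unknown, and signals are compared only within a list. The pooled list is made from the reads of both replicates and is not independent of them.

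To show what lay under the strongest summits, 121 bases centred on the pooled summit are given for the 5 genes with the highest signal and for mrpl-45, which had the word described below at 2 places. The sequences are from the RefSeq copy of assembly WBcel235, the same sequence as ce11, and are written on the strand of the gene. The windows are mrps-7 at chrIV:14767853-14767973 (minus strand), mrpl-28 at chrII:156077-156197 (minus strand), mrpl-49 at chrV:12728395-12728515 (plus strand), mrpl-32 at chrIII:8449361-8449481 (plus strand), mrps-16 at chrII:5474038-5474158 (plus strand) and mrpl-45 at chrIII:1202300-1202420 (minus strand). Capitals mark the words GACGCA (or TGCGTC on the other strand) and CGCAAACAC. None of these bases is in an annotated exon.
mrps-7: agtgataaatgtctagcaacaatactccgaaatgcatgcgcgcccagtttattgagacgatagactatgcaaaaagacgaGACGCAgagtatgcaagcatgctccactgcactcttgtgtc
mrpl-28: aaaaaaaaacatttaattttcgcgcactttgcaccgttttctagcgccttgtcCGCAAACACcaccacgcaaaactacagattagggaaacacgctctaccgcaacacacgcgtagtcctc
mrpl-49: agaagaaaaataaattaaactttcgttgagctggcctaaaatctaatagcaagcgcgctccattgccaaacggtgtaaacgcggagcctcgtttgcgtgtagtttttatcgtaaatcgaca
mrpl-32: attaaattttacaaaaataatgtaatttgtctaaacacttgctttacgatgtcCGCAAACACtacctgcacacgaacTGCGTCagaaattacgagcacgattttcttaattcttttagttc
mrps-16: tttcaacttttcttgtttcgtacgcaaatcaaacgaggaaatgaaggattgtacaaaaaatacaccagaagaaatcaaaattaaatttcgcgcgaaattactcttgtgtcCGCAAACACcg
mrpl-45: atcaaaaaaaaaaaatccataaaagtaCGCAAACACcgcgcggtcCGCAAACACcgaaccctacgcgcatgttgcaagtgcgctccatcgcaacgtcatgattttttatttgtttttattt

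Candidates were more common at mitochondrial ribosomal protein genes than at other genes, and most were weak, as were those of other genes. Of the 70 genes, 41 had a pooled candidate, or 58.6% (Wilson 95% interval 46.9% to 69.4%), beside 28.5% of the other 19903 nuclear protein-coding genes (27.8% to 29.1%). Each replicate's own list gave a like share. In replicate 1 it was 42 genes, or 60%, beside 29.3% of other genes, and in replicate 2 it was 39 genes, or 55.7%, beside 28.8%. The lists thus gave shares within a few genes of each other. Candidates were present in both replicates at 29 genes, or 41.4% (30.6% to 53.1%), beside 16.9% of other genes. In all 3 lists there was a candidate at 28 genes, or 40%, beside 15.7%. At 16 genes, or 22.9%, no list had one, beside 57.2% of other genes. No p-value is given, since genes are not replicates and there is 1 group. Intervals cover counting error over genes alone, and neighbouring genes can share a summit.

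**Figure D1:**
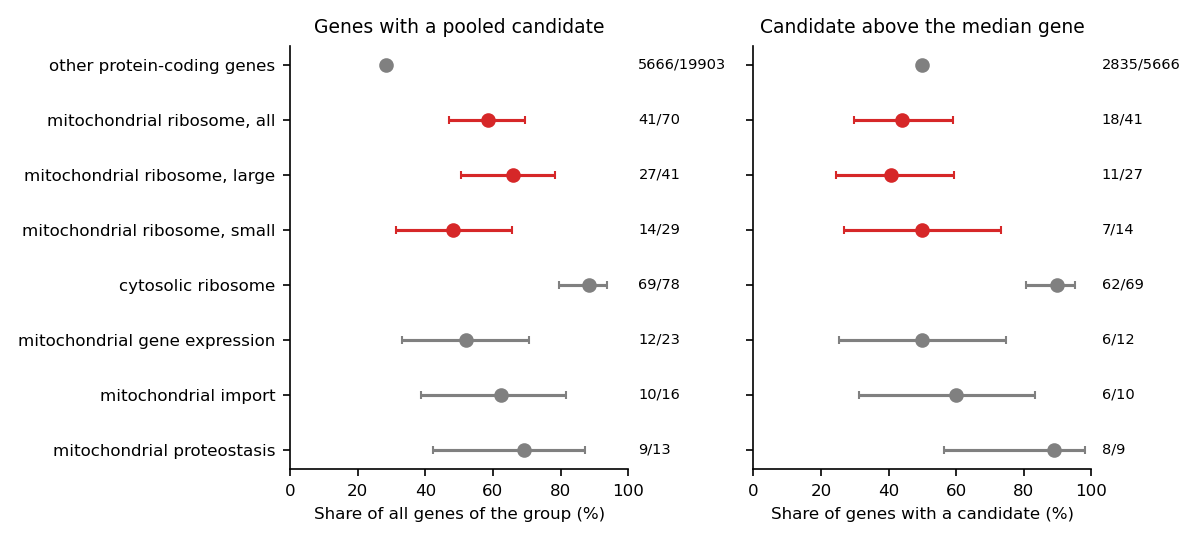
Left, share of genes of each group with a pooled candidate within 500 bp of the 5' end, and right, share of those genes whose candidate signal is above the median of all genes with one (percent, points; bars are Wilson 95% intervals, and counts stand beside them). The mitochondrial ribosome is at 58.6% on the left, above the 28.5% of other genes, and at 43.9% on the right, where other genes are at 50%.

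Few of these genes, as of other genes, had a candidate in the strong end of the list. Among the 41 genes with a pooled candidate, 1 had a summit that passed IDR, or 2.44% (0.432% to 12.6%), beside 330 of 5666 other genes, or 5.82%. Within the 1000 strongest pooled regions there were 4 of the 41 genes, or 9.76% (3.86% to 22.5%), beside 8% of other genes with a candidate. These counts are small, both intervals are wide, and each includes the share of other genes. A q-value of at most 0.05 in the pooled list was reached at 10 of the 41, or 24.4% (13.8% to 39.3%), beside 30.9%. Candidate signals above the median gene were found at 18 of the 41, or 43.9% (29.9% to 59.0%), where other genes are at 50%. The median pooled signal was 11.2 (range 5.81 to 36.1) at the 41 genes and 11.6 at the other genes. In replicate 1 the medians were 3.76 and 4.11, and in replicate 2 they were 8.43 and 9.45. In each of the 3 lists the median of these genes was slightly below that of the other genes, and the ranges overlapped. The order of the pooled medians was not stable: at 1000 bp they were 12.6 and 11.7, and with upstream summits alone 12.1 and 11.9.

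Read from the strongest region downwards, the share of these genes was close to that of other genes at the IDR cut and above it at each lower step counted. Among the 704 strongest pooled regions, 1.43% of the 70 genes and 1.66% of other genes had a summit. Among the 1000 strongest the shares were 5.71% (2.24% to 13.8%) and 2.28%, or 4 and 453 genes. Among the 2000 strongest these shares were 7.14% and 4.08%, or 5 and 812 genes. Among the 10000 strongest they were 24.3% and 13.8%, or 17 and 2756 genes. The regions below that brought these counts to 41 and 5666, so that most of the 41 genes, and most of the other genes with a candidate, had it only in the weaker regions.

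**Figure D2:**
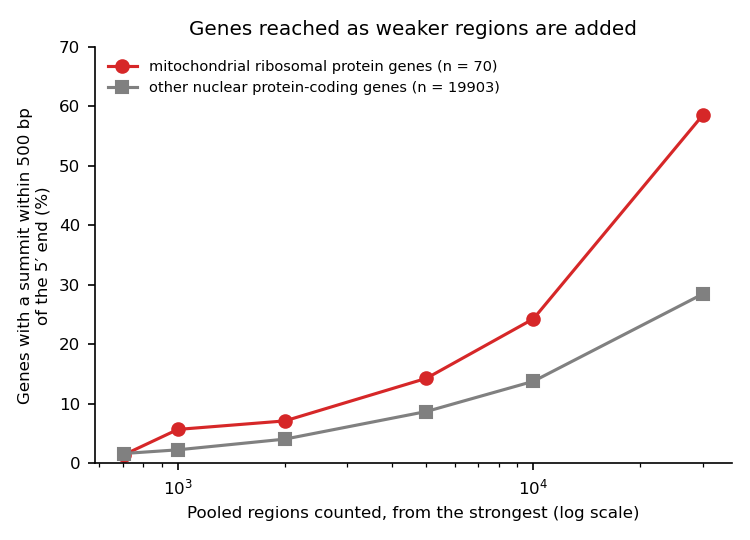
Share of genes (percent) with a pooled summit within 500 bp of the 5' end, as regions are counted from the strongest downwards (log scale), for the 70 mitochondrial ribosomal protein genes and the 19903 other nuclear protein-coding genes. The lines start together at the IDR cut (1.43% and 1.66%) and end at 58.6% and 28.5%.

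mrps-7 (WBGene00013324, chromosome IV, 14766773 to 14767730, minus strand), the counterpart of bacterial small-subunit protein S7, was the 1 gene with an IDR summit. Its region spanned 14767728 to 14768097, with the summit in intergenic sequence at 14767913, 183 bp upstream of the 5' end. The pooled signal was 36.1 at rank 698, close to the IDR limit of 704 regions. Replicate 1 had signal 10.4 at rank 1555 and replicate 2 had 24.7 at rank 930, with summits 0 and 6 bp from the pooled one. The region was therefore found at the same place in both replicates and was within the 1000 strongest of replicate 2 but not of replicate 1. The same summit lay 288 bp from the 5' end of Y57G11C.3, and it cannot be told from these lists which of the genes it belongs to.

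mrpl-28 (WBGene00020796, chromosome II, 154881 to 156009, minus strand), the counterpart of bacterial large-subunit protein L28, was just below the cut. Its pooled signal was 35.6 at rank 717, with replicate 1 at 12.5 (rank 936) and replicate 2 at 22 (rank 1309). The summit at 156137 lay 128 bp upstream, and no other protein-coding 5' end was within 500 bp of it. The same held for the summits of mrpl-32 and mrps-16 below, while those of mrps-7 and mrpl-49 were also near another gene. At mrpl-28 the replicate summits were 1 and 34 bp from the pooled one.

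mrpl-49 (chromosome V, 12728631 to 12729417, plus strand) encodes a subunit that in humans has no bacterial counterpart. It had a pooled signal of 34.8 at rank 753, with 8.84 (rank 2350) in replicate 1 and 25.1 (rank 891) in replicate 2. Its summit lay 176 bp upstream and 343 bp from the 5' end of rpl-28, which encodes a protein of the cytosolic large subunit. A gene for each of the cell's ribosomes is thus at this region, and rpl-28 is counted with the same summit in the cytosolic list below.

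mrpl-32 (chromosome III, 8449757 to 8450519, plus strand), whose protein is known in yeast and mouse to be matured by the m-AAA protease, had a pooled signal of 31.5 at rank 990, 336 bp upstream. Replicate 1 had a summit 44 bp away with signal 13.98 at rank 689. Replicate 2 had its strongest candidate elsewhere, 494 bp upstream in the 3' UTR of the neighbouring gene rpn-3, with signal 26.0 at rank 810. Its summit near the pooled one, 45 bp away, had signal 6.99 at rank 17666. Each replicate therefore had a strong candidate at this gene, but the strongest summits were at different sites. Weaker summits of replicate 1 and of the pooled list in the window were not compared with the strongest one of replicate 2. mrpl-32 was the only one of the 70 genes within the 1000 strongest regions of each replicate's list.

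mrps-16 (chromosome II, 5474373 to 5475420, plus strand), the counterpart of bacterial S16, was the last of 5 genes whose pooled q-value was at the ceiling of the list (−log10 q of 3.15, shared by 2113 regions). Its pooled signal was 24.9 at rank 1818, with 11.3 (rank 1231) in replicate 1 and 12.7 (rank 5394) in replicate 2. The summit was 275 bp upstream, and replicate summits were 18 and 0 bp from it. All 5 of these genes had intergenic summits upstream of the gene. Other genes at the ceiling, and the positions of their summits, were not counted, so neither is shown to be particular to these genes.

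The other genes had lower signals and less uniform positions. mrpl-41, for a mitochondria-specific large-subunit protein, had 19.4 at rank 3349, with a summit 70 bp downstream in a coding exon and no replicate 1 summit within 100 bp. mrps-35 had 18.2 at rank 3897, in a 5' UTR 107 bp upstream and 280 bp from the 5' end of sws-1. mrpl-45 had 18.1 at rank 3901, 352 bp upstream of its own 5' end and 186 bp from that of Y119D3B.12. The replicates differed widely there, with mrpl-45 at rank 1348 in replicate 1 and at rank 11146 in replicate 2, at summits 8 and 23 bp from the pooled one. The next were mrpl-13 (16.97), the counterpart of bacterial L13, mrpl-37 (16.8), mrps-14 (15.5), the counterpart of bacterial S14, and mrpl-53 (14.5). mrpl-37 and mrps-14 had a candidate in replicate 2 and none in replicate 1. Downwards from there, mrpl-12, for the counterpart of the bacterial stalk protein L7/L12, had 13.5 in the pooled list. Its replicate ranks of 810 and 3226 were higher than its pooled rank of 7614, and the replicate 1 summit was 180 bp from the pooled one. The genes mrps-31 (12.7), mrps-21 (11.2), mrpl-35 (10.2), mrps-26 (7.50) and mrpl-30 (6.83) had lower pooled signals and a candidate in all 3 lists. The weakest was mrps-6 at 5.81, rank 29885 of 30000.

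**Figure D3:**
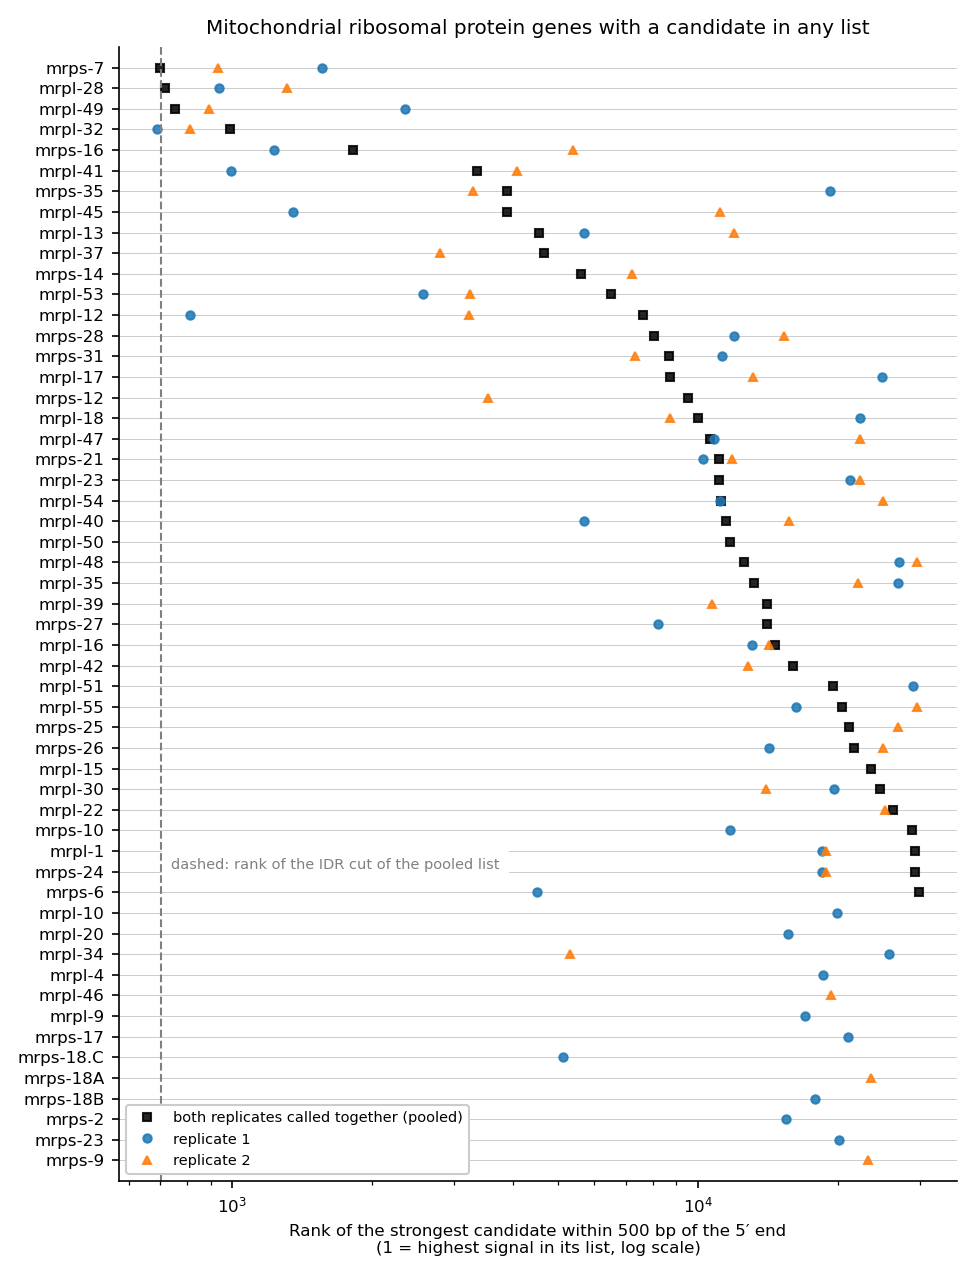
Rank (log scale, 1 is the highest signal of its list) of the strongest region with a summit within 500 bp of the 5' end, for the 54 mitochondrial ribosomal protein genes with a candidate in the pooled list (squares), replicate 1 (circles) or replicate 2 (triangles). The pooled ranks run from 698 (mrps-7) to 29885 (mrps-6), 1 gene lies left of the dashed IDR cut at 704, and replicate ranks of a gene are often far apart.

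Presence in both replicate lists did not always mean the same site. Of the 41 pooled summits, 15 had summits of both replicates within 100 bp, or 36.6% (23.6% to 51.9%), beside 31.3% at other genes. Replicate 2 had one within 100 bp at 31, or 75.6%, beside 74.2%, and replicate 1 at 21, or 51.2%, beside 45%. The 15 genes were mrpl-13, mrpl-17, mrpl-23, mrpl-28, mrpl-32, mrpl-45, mrpl-47, mrpl-48, mrpl-49, mrpl-54, mrpl-55, mrps-7, mrps-16, mrps-28 and mrps-35. Pooled summits thus matched replicate 2 more often than replicate 1, at these genes as at all others. Over all 70 genes, 16 had summits of both replicates that were reciprocally nearest within 100 bp, or 22.9% (14.6% to 34.0%), beside 9.35%.

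Of the other genes with a pooled candidate, mrpl-15 and mrpl-50 had none in either replicate list. Another 7 had one in replicate 2 alone (mrpl-22, mrpl-37, mrpl-39, mrpl-42, mrps-12, mrps-14 and mrps-25) and 4 in replicate 1 alone (mrpl-51, mrps-6, mrps-10 and mrps-27). A further 13 genes had a candidate in a replicate list but none in the pooled list, of which 9 were in replicate 1 alone (mrpl-4, mrpl-9, mrpl-10, mrpl-20, mrps-2, mrps-17, mrps-18.C, mrps-18B and mrps-23). For replicate 2 alone these were mrpl-46, mrps-9 and mrps-18A, and for both replicates mrpl-34. Shares of other genes with each of these patterns were not counted, so whether the patterns are particular to these genes cannot be told.

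The 16 genes with no candidate in any list were mrpl-2, mrpl-11, mrpl-19, mrpl-21, mrpl-24, mrpl-36, mrpl-38, mrpl-44, mrps-5, mrps-11, mrps-15, mrps-18C, mrps-22, mrps-30, mrps-33 and mrps-34. mrps-5, the gene known from lifespan work, was among them, and its nearest pooled summit was 2308 bp from the 5' end. It starts 104 bp downstream of the end of sel-1 on the same strand. For the 29 genes without a pooled candidate, the nearest pooled summit was at a median of 2718 bp (589 to 22384). A gene without a candidate is one for which these lists hold no summit in the window, and binding below what they list was not measured.

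The subunits had shares whose intervals overlapped. A pooled candidate was present at 27 of 41 large-subunit genes, or 65.9% (50.5% to 78.4%), and at 14 of 29 small-subunit genes, or 48.3% (31.4% to 65.6%). Candidates in all 3 lists were at 20 and 8 genes, or 48.8% (34.3% to 63.5%) and 27.6% (14.7% to 45.7%). The median pooled signal was 11.1 for the large subunit and 11.7 for the small, and 3 and 1 genes were within the 1000 strongest regions. Signals above the median gene were at 11 of 27 and 7 of 14 genes with a candidate, or 40.7% (24.5% to 59.3%) and 50% (26.8% to 73.2%). For a pooled candidate and for all 3 lists, each subunit's share lay outside the other's interval, though the intervals overlapped. Whether the subunits differ was not tested.

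Summits lay on both sides of the gene start. Of the 41, 24 were upstream, or 58.5% (43.4% to 72.2%), beside 65.7% of other genes with a candidate, and the median distance was 204 bp (8 to 497) beside 225 bp. The nearest to a start were mrpl-48 at 8 bp and mrpl-47 at 29 bp, both downstream, and mrpl-15 at 43 bp upstream. Intergenic sequence held 20 summits, or 48.8%, beside 54.9% at other genes. Coding exons held 10, or 24.4% (13.8% to 39.3%), beside 14%, introns 8, 5' UTRs 2 and a 3' UTR 1. The genes themselves were shorter, with a median length of 1126 bp beside 2030 bp.

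**Figure D4:**
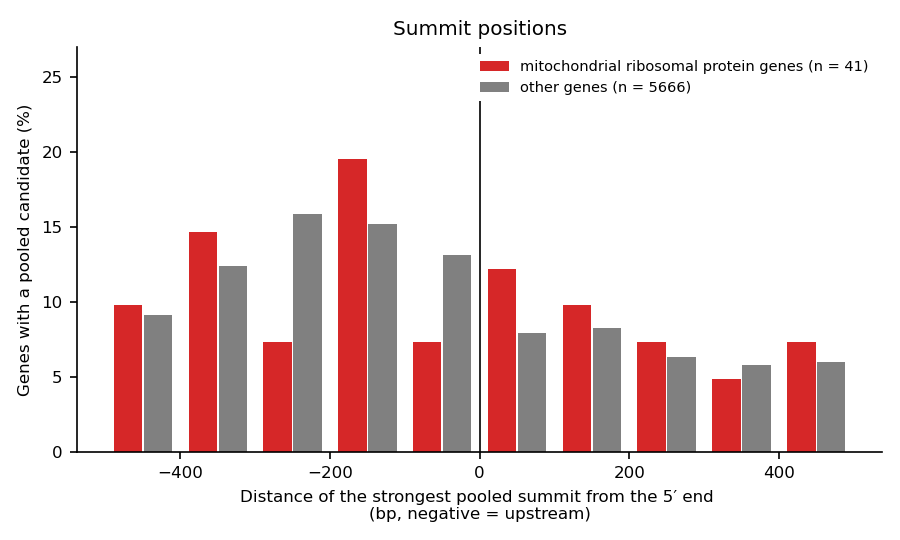
Distance in bp of the strongest pooled summit from the annotated 5' end (negative is upstream, bins of 100 bp), as percent of the 41 mitochondrial ribosomal protein genes and of the 5666 other genes with a pooled candidate. Both groups spread over the whole window, with 58.5% and 65.7% upstream, and no bin of the 41 genes holds more than 8 genes.

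Mitochondrial ribosomal protein genes lie close to other genes, and a summit was often within reach of more than 1. Another protein-coding 5' end was within 500 bp of the start at 22 of the 70 genes, or 31.4% (21.8% to 43.0%), beside 11.1% of other genes. The pooled summit was also within 500 bp of another gene's 5' end at 19 of the 41, or 46.3% (32.1% to 61.3%), beside 19.1%. At 9 genes it was nearer to the start of another gene than to their own (mrpl-1, mrpl-16, mrpl-18, mrpl-37, mrpl-40, mrpl-45, mrps-6, mrps-25 and mrps-28). The diverging genes mrpl-1 and mrps-24 shared 1 summit, in a coding exon 497 and 153 bp from their starts, so that 40 summits served 41 genes. For these 19 genes the lists do not tell which gene a region belongs to.

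A higher share than that of other genes was also found where no other 5' end was within 500 bp. With another 5' end within 500 bp, 13 of 22 genes had a pooled candidate, or 59.1% (38.7% to 76.7%). Other genes so placed were at 39.1%, just inside that interval. With no other 5' end within 500 bp, 28 of 48 genes had a candidate, or 58.3% (44.3% to 71.2%), beside 27.1% of other genes. Genes that end within 500 bp upstream were not set apart in this split. Among other genes the share was higher with another 5' end that near than without, and among the 70 it was about the same. Many of these genes also follow another gene closely on the same strand, the spacing of C. elegans operons, in which downstream genes are often transcribed from the promoter of the leading gene. The end of such a gene was within 500 bp upstream at 27 of the 70, or 38.6% (28.0% to 50.3%), beside 18%, and within 150 bp at 20 of the 27. A pooled candidate was present at 14 of these 27, or 51.9% (34.0% to 69.3%), beside 34.7%, and at 27 of the other 43, or 62.8% (47.9% to 75.6%), beside 27.1%. Of the 16 genes with no candidate in any list, 9 had this spacing, among them mrps-22, which starts 106 bp after dap-3, a gene for another small-subunit protein. For other genes, neither the share within 150 bp nor the share with this spacing among those without a candidate was counted. Whether the genes are in operons was not tested, since spacing alone was used.

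The chromosomes gave the same direction. The 70 genes were spread over the autosomes, with 22 on chromosome III and none on X. The share with a pooled candidate ran from 53.3% (8 of 15 genes) on chromosome I to 72.7% (8 of 11) on chromosome IV, and that of other genes from 20.6% on V to 38.8% on III. On each of the 5 autosomes these genes had the higher share, though on I and III the interval of the small number of genes reached the share of the others (30.1% to 75.2% beside 35.8%, and 34.7% to 73.1% beside 38.8%). Over autosomes together the shares were 58.6% and 28.3%.

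GACGCA, a 6-base word taken from earlier work on these data, was not more frequent at these genes. With both strands searched within 100 bp of the summit, it was present at 2 of 41 genes (mrps-7 and mrpl-32, both shown above), or 4.88% (1.35% to 16.1%). It was present at 10.4% of other genes' candidates, at 22.6% of the nuclear regions that passed IDR (153 of 678) and at 6.13% of all nuclear pooled regions. Since the word came from summits of these data, its shares at regions are partly set by that choice. In promoters, taken as 250 bases before to 50 after the start, the word was present at 4 of 70 genes, or 5.71%, beside 8.79%.

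A longer word was noticed in the sequences above. CGCAAACAC was present within 100 bp of the pooled summit at 5 of 41 genes, or 12.2% (5.32% to 25.5%), and at 99 of 5666 other genes, or 1.75% (1.44% to 2.12%). The genes were mrpl-28, mrpl-32, mrpl-45, mrps-16 and mrps-28. It was present at 1.18% of nuclear regions that passed IDR and at 0.507% of all nuclear pooled regions. In promoters it was present at 5 of 70 genes, or 7.14% (3.09% to 15.7%), beside 1.04% of other genes, and in the window from 500 bp before to 500 bp after the start at 8 of 70, or 11.4% (5.91% to 21.0%), beside 1.93%. Since the word was picked from the sequences of these genes after they had been seen, the shares describe it and do not test it. The fixed word and this one could overlap by the letters CGCA, and in the windows of these genes they did not.

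Strand and flanking bases of the copies were looked at after the word had been seen, so they describe the copies and test nothing. All 6 copies were on the strand of the gene, mrpl-45 holding 2. The share of copies on the gene strand at other genes was not counted. At mrpl-45 and mrps-28 the summit was nearer to the start of another gene. In 4 copies the letters GTC stood before the word and in 2 the letters GTA (mrps-28 and the copy of mrpl-45 farther from the summit). Over all nuclear pooled summit windows, which include those of these genes, 33 of 154 copies had GTC and 74 had GTA. The word began 7 bp upstream of the summit at mrpl-28 and mrpl-32, 33 and 15 bp upstream at mrpl-45, and 50 and 18 bp downstream at mrps-16 and mrps-28. The median pooled signal was 24.9 (13.1 to 35.6) at the 5 genes with the word and 10.9 at the 36 without, and among other genes it was 15.1 at 99 and 11.6 at 5567. The word was seen in windows shown for their high signal, so the higher signal of the 5 genes is partly set by that choice and supports nothing. mrps-10, mrps-15 and mrps-18A had the word in the wider window and not within 100 bp of a pooled summit. mrps-10 had a pooled candidate elsewhere in its window (5.98 at rank 28924), mrps-18A had one in replicate 2 alone, and mrps-15 had none in any list. mrps-28 (13.1 at rank 8041) had ranks of 11951 and 15293 in the replicates, so a gene with the word could also be weak.

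Other gene groups were set beside these as a description. Of 78 cytosolic ribosomal protein genes (rpl- and rps-), 69 had a pooled candidate, or 88.5% (79.5% to 93.8%), and 24 of the 69 an IDR summit, or 34.8%. Their median pooled signal was 28.2, with rpl-3 at 265.4, rpl-20 at 177.6 and rpl-15 at 170.5. The intervals of the mitochondrial and cytosolic ribosome do not overlap, either for the share with a candidate or for the share above the median gene, which was 89.9% (80.5% to 95%) for the cytosolic genes. No cytosolic gene had CGCAAACAC within 500 bp of its start, where 0 of 78 allows up to 4.69% by the Wilson interval.

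Genes for other mitochondrial functions varied among themselves. For mitochondrial gene expression (translation factors, tRNA synthetases, polymerases, DNA binding proteins and dap-3, itself a gene for a mitochondrial ribosomal protein, 23 of 24 listed names matched), 12 genes had a pooled candidate, or 52.2%, and none an IDR summit. The median signal was 11.2, led by the tRNA synthetase genes yars-2 (25.1) and ears-2 (22.96) and the elongation factor gene tufm-1 (18.7). For protein import 10 of 16 genes had one, or 62.5%, with a median of 17.5. ddp-1, for a small Tim chaperone of the intermembrane space, had 51.5 at rank 261, and tomm-20, for an outer membrane receptor, had 45.6 at rank 367, both with IDR summits, while timm-17B.1, for a subunit of the inner membrane translocase, had 28.5 and none. For chaperones, proteases and regulators of the mitochondrial unfolded protein response 9 of 13 had one, or 69.2%, with a median of 19.6, led by clpp-1 (29.7), for a matrix protease, ubl-5 (28.0) and atad-3 (26.2). In this last group 8 of 9 signals were above the median gene, or 88.9% (56.5% to 98.0%), beside 43.9% for the mitochondrial ribosome, and 9 of 13 genes had a candidate in both replicates, or 69.2%, beside 41.4%. For gene expression and import 50% and 60% of the signals were above the median gene. The intervals of the 3 shares with a pooled candidate (33.0% to 70.8%, 38.6% to 81.5% and 42.4% to 87.3%) all include the 58.6% of the mitochondrial ribosome. CGCAAACAC was within 500 bp of the start at mtss-1, tin-9.2 and mppa-1 and at no other gene of the 3 lists. For import that was 2 of 16 genes, or 12.5% (3.50% to 36.0%). The 11.4% of the mitochondrial ribosome is partly set by the choice of the word from its own sequences, so the shares are not compared. For gene expression it was 1 of 23, or 4.35% (0.772% to 21.0%), and for the last group 0 of 13 (up to 22.8%).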

How the data were processed

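The authors made narrowPeak region lists from ChIP-seq reads of eGFP-tagged ZTF-4, and deposited 1 list per replicate, 1 for both replicates together and 1 thresholded by IDR. The aligner, the peak caller, the control's strain and the IDR threshold are not given in the sources used here. The deposited signal value of each region was used as the authors' own measure of enrichment, whose definition is not given. The deposited −log10 q-values were used for the ceiling and for the limit of 0.05. Alignments were not used, so depth is unknown. Lists in ce11 were used. No untagged control or map of commonly bound regions was used, so a signal common to many factors could not be set apart.

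Summits were assigned to 5' ends of Ensembl release 115 gene models within 500 bp, and a summit in several annotations took coding exon before UTR, UTR before intron, and intron before non-coding gene. Counts over genes have Wilson 95% intervals. Coordinates are 1-based. Assignment was tested on simulated data. Scripts ran in Python 3.11.15, with tables in pandas 2.3.3, arithmetic in numpy 2.4.6, intervals in scipy 1.17.1 and plots in matplotlib 3.10.9. Named were every gene with an IDR summit, the 12 with the highest pooled signal, those in all 3 lists, the 3 nearest to a start, up to 3 of each related list, and all others by class. The genes, lists and the word GACGCA were chosen with earlier results of these data known. The word CGCAAACAC and the bases before it, the 1000 strongest regions, the q-value limit and the splits by neighbours and chromosome were added after seeing the data. mrps-5, mrps-6, mrps-22 and mrps-28 were also singled out then.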

Additional observations from a re-analysis of the deposited data

How the results depend on the processing

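With the window at 250 bp, 27 genes had a pooled candidate (38.6%, beside 17.8% of other genes) and 15 one in both replicates. With the 10000 strongest regions of each list the counts were 17 (24.3%, beside 13.8%) and 8, and the median signal 16.97 (beside 18.6). Counting upstream summits alone gave 25 (35.7%, beside 20.4%) and 16, and reciprocally nearest replicate summits 16. In each of these settings the share with a pooled candidate was above that of other genes. At 1000 bp there were 2 genes with an IDR summit, the added one being mrpl-23, with a summit 975 bp upstream in an intron at rank 143. Leaving out a replicate, with the other replicate's own list and its strongest 704 regions, gave 39 to 42 genes with a candidate, 0 to 1 genes among the strongest regions (mrpl-32 in place of mrps-7 without replicate 2), and medians of 3.76 to 8.43, on scales of their own lists. The median signal, below that of other genes as reported (11.2 beside 11.6), was above it at 1000 bp (12.6 beside 11.7) and with upstream summits alone (12.1 beside 11.9). The smaller counts come with fewer regions or bases counted by construction, and otherwise the cause was not tested. The share above the median gene ran from 35.3% to 57.8%. No paired analysis was possible because there is 1 group. Depth, which is unknown, limits what a missing candidate says.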
